A study of Mus musculus with 8 samples.

Results

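Genes of colony-stimulating factor signalling were followed through a single-nucleus RNA-seq atlas of the mouse brain. They are Csf1r, the receptor tyrosine kinase of microglia and macrophages, its ligands Csf1 and Il34, and Csf2ra and Csf2rb, the α and common β subunits of the receptor for granulocyte-macrophage colony-stimulating factor. They were chosen by name, with earlier results of these data known, and are 5 of the 32285 genes in the deposited tables. All 5 were detected, with 6493 unique molecular identifiers (UMIs, counted molecules) of Csf1r, 6770 of Csf1, 18738 of Il34, 49934 of Csf2ra and 527 of Csf2rb.

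The study asked how defective myelin bears on amyloid deposition, and sequenced nuclei of brain hemispheres, with cerebellum and olfactory bulb removed, from C57BL6/J mice aged 6 months. There were 2 libraries for each of 4 genotypes. WT mice carried neither mutation. Cnp-/- mice lack Cnp, an enzyme of myelin, in all cells, 5xFAD mice express mutant human amyloid precursor protein and presenilin from neuronal transgenes, and Cnp-/- 5xFAD mice carry both. The study's reporting notes describe 2 pooled animals per replicate for its single-cell work, whereas its methods state pooling only for another dataset, so whether a library here is a pool is not settled.

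CSF1R binds CSF1 and IL-34, and signalling through it keeps microglia alive. Loss of the receptor or its inhibition empties the brain of microglia. In the healthy brain IL-34 is known mainly as a neuronal product and CSF1 as a glial one, and both bind the receptor as dimers. CSF2RB is shared with the interleukin-3 and interleukin-5 receptors, and needs a ligand-specific α chain such as CSF2RA to form a signalling complex.

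The stretches upstream of Csf1 and Csf2ra are shown, genes whose levels differed between microglial subpopulations as given further on. Of the 5 genes, only these 2 had an entry among the 32851 RefSeq promoters (build GRCm38.p6). The 250 bases before the Csf1 start lie on the minus strand at chr3:107760470-107760719. Csf1 itself (ENSMUSG00000014599) spans 107741048 to 107760469 of chromosome 3 in the GENCODE annotation of GRCm38. The capitals mark a κB motif, the letters bound by NF-κB factors, in its reverse orientation and 154 bases before the start.
Csf1: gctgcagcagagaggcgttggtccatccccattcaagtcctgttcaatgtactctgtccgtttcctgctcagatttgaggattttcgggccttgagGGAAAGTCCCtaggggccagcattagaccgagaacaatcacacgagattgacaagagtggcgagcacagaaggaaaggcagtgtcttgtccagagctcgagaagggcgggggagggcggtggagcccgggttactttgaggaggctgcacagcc
The 239 bases before Csf2ra (ENSMUSG00000059326, minus strand, chromosome 19, 61223957 to 61228429) lie at chr19:61228430-61228668. Here the capitals mark a cyclic AMP response element, 81 bases before the end of the printed stretch.
Csf2ra: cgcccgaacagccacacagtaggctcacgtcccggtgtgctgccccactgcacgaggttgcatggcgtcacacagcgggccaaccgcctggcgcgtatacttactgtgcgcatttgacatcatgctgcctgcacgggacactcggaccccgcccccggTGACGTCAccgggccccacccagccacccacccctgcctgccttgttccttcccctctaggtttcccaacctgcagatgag
The letters were chosen after the stretches had been seen, and both strands were searched. The 10 κB letters shown in capitals, in either orientation, were found in 46 promoters (0.14%), TGACGTCA in 508 (1.55%), and GAGGAA, the core of the motif of the myeloid factor PU.1, in 7639 (23.3%) but in neither printed stretch. The motifs do not overlap each other. A match describes the letters and shows no binding.

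Libraries held 6801 to 8824 nuclei and 68905044 to 82399061 UMIs each, 61949 nuclei in all. Cnp in mature oligodendrocytes lay between 219 and 321 CPM (UMIs of the gene for every 1000000 UMIs) in the 4 libraries with intact Cnp and between 23.1 and 32.8 CPM in the 4 libraries labelled Cnp-/- or Cnp-/- 5xFAD, which followed the labels. Of 61494 distinct barcodes, 454 (0.738%) occurred in 2 or more libraries and none in more than 3. Each cell type carried its own marker list at the highest level of any type, except that the pericyte list was as high in endothelial cells (median 2706 CPM against 2695 in pericytes) through Rgs5. Nuclei of the cell type called newly formed oligodendrocytes also held markers of other types, with medians of 3165 CPM for the mature oligodendrocyte list, 1147 CPM for the astrocyte list and 270 CPM for the microglial list (2634 CPM in microglia and macrophages). Their part in the levels of that cell type was not tested.

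Among the 8 annotated cell types, Csf1 had its highest mean level per UMI in mature oligodendrocytes. Levels are CPM of the UMIs that a cell type held in a library. They are 3′ tag counts with no correction for length, so a gene is compared only with itself. Mature oligodendrocytes, the myelin-forming cells, held 116 CPM ± 13.8 (SD, n = 8 libraries) of Csf1. Astrocytes held 53.6 ± 14.7 CPM, endothelial cells 28.9 ± 7.70 CPM, newly formed oligodendrocytes 47.5 ± 13.5 CPM, oligodendrocyte precursor cells 12.5 ± 4.32 CPM and neurons 7.16 ± 0.862 CPM. Pericytes had 7 Csf1 UMIs in 260 nuclei. In mature oligodendrocytes the level was 104 and 110 CPM in WT, 112 and 140 in Cnp-/-, 129 and 116 in 5xFAD, and 96.7 and 120 in Cnp-/- 5xFAD. WT lay below Cnp-/- and 5xFAD, whereas the Cnp-/- 5xFAD libraries fell on either side of WT. Microglia and macrophages together averaged 83.5 ± 52.6 CPM, with a spread from 10.9 to 140 CPM that followed genotype, and they stood below mature oligodendrocytes in 5 of 8 libraries. The order of microglia, astrocytes and newly formed oligodendrocytes did not exceed the spread between libraries.

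Neurons were nevertheless the largest pool of Csf1 molecules, since they were 72.9% of the nuclei and held most of the UMIs. They held 59.4% of all Csf1 UMIs, against 16.2% in mature oligodendrocytes, 10.8% in astrocytes and 6.87% in microglia and macrophages. The microglial share of Csf1 ran from 0.284% to 12.4% over the libraries. A Csf1 UMI was found in 7.38% of neurons (median 9105 UMIs per nucleus), 16.3% of mature oligodendrocytes (median 1515) and 13.1% of astrocytes (median 2636). With nuclei thinned to 757 UMIs, which left out 6 neurons, 398 mature oligodendrocytes and 7 astrocytes of lower depth, these shares were 0.46%, 8.01% and 3.802%, so at equal depth neurons were the lowest of these cell types.

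**Figure D1:**
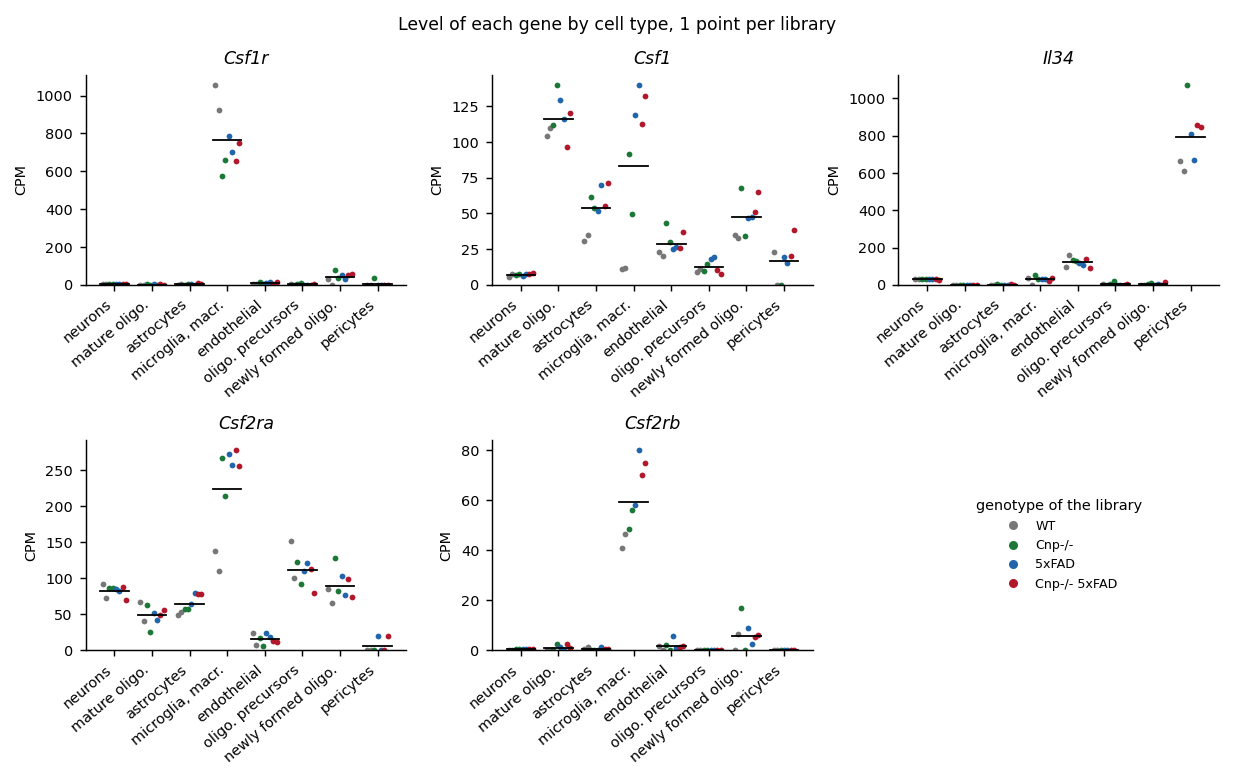
Level of each gene in CPM (y axis, linear, from 0) in 8 cell types (x axis), with 1 point per library coloured by genotype and the mean as a black line; pericytes have 7 libraries of 20 or more nuclei. Csf1r and Csf2rb stand out in microglia and macrophages and Il34 in pericytes. Csf1 in mature oligodendrocytes overlaps with microglia and macrophages (10.9 to 140 CPM), and Csf2ra is spread over glia and neurons.

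Il34 followed another pattern, with its highest level in pericytes, the contractile cells of capillary walls. Pericytes (260 nuclei) held 791 ± 158 CPM over 7 libraries of 20 or more nuclei, at 665 and 613 CPM in WT, 1075 in Cnp-/- replicate 1, 809 and 669 in 5xFAD, and 858 and 846 in Cnp-/- 5xFAD. Every one of these values was above the highest of any other cell type. Endothelial cells followed with 120 ± 22.6 CPM (90.1 to 159) and neurons with 30.6 ± 1.30 CPM (28.2 to 32.1), and these 3 ranges did not overlap. Mature oligodendrocytes had 2 Il34 UMIs in 5612 nuclei, astrocytes 24 in 4810, precursor cells 19 in 1522 and newly formed oligodendrocytes 10 in 465. Microglia and macrophages as annotated over all nuclei held 30.1 ± 14.8 CPM, with 147 UMIs in 2472 nuclei, of which 121 lay in 181 nuclei that the separate microglia table does not hold. Il34 (ENSMUSG00000031750) lies on the minus strand of chromosome 8, from 110741829 to 110805924.

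In total Il34 RNA neurons led again. They held 91.8% of its UMIs, with 89.7% to 94.3% over the libraries, whereas endothelial cells held 5.40% and pericytes 1.68% from 0.42% of the nuclei. The neuronal level of 30.6 CPM was close to the 30.9 CPM over all nuclei of a library. The neuronal share of Il34 was thus about the neuronal share of all UMIs, and shows no enrichment in neurons. Neuronal Il34 varied little between libraries, at 30.4 and 29.8 CPM in WT, 32.1 and 30.1 in Cnp-/-, 31.6 and 32.0 in 5xFAD, and 30.9 and 28.2 in Cnp-/- 5xFAD. Both 5xFAD libraries lay above those of WT and Cnp-/- 5xFAD, by less than 4 CPM.

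The endothelial class was not uniform for Il34. It consisted mainly of 2 clusters of the deposited metadata, and these clusters were compared after the levels had been seen. Cluster 26 (854 nuclei) held 12.6 CPM of Il34 and 21.2 CPM of Pdgfrb, the PDGF receptor of pericytes. Cluster 28 (743 nuclei) held 168 CPM of Il34 and 394 CPM of Pdgfrb, beside 4790 CPM of the endothelial receptor Flt1. The pericyte cluster 42 held 782 CPM of Il34 and 1545 CPM of Pdgfrb. Il34 was higher in cluster 28 than in cluster 26 in all 8 libraries, with ranges of 142 to 211 CPM and 6.05 to 32.8 CPM. The endothelial level of Il34 therefore came with a pericyte marker. The part of pericyte RNA in it was not tested.

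Among neurons, Il34 varied between clusters. Over the 18 neuron clusters of 1000 or more nuclei, its level pooled over libraries ran from 13.7 CPM in cluster 18 to 42.6 CPM in cluster 4, with a median of 29.9. By the mean of libraries cluster 23 was lowest (9.63 CPM, against 12.9 in cluster 18), with 0 in both 5xFAD libraries. These held only 32 and 44 nuclei of the cluster, and in Cnp-/- replicate 1 a single UMI in 46 nuclei made 8.99 CPM. The larger WT replicate 1 (430 nuclei) and Cnp-/- replicate 2 (390) held 17.2 and 17.7 CPM. Cluster 18 was rich in the inhibitory markers Gad2 (539 CPM), Vip (201 CPM) and Prox1 (158 CPM), and its libraries spanned 8.31 to 20.7 CPM of Il34. Cluster 4 carried the excitatory markers Slc17a7 (262 CPM) and Rorb (249 CPM), and its libraries spanned 38.1 to 48.2 CPM, without overlap with cluster 18. Gating nuclei on marker UMIs gave 36.4 ± 3.78 CPM in Rorb glutamatergic nuclei, 33.6 ± 4.44 in Cux2 glutamatergic nuclei and 26.5 ± 4.24 in Foxp2 glutamatergic nuclei. Among inhibitory nuclei it gave 50.0 ± 25.2 CPM in Sst nuclei (264 nuclei, 10.1 to 82.9 over libraries), 45.6 ± 35.5 in Drd2 nuclei (0 to 119), 18.3 ± 6.12 in Vip nuclei and 8.46 ± 6.83 in Pvalb nuclei. These nuclei had 2 or more UMIs of their marker, and with 3 or more the level was 2.13 CPM in Pvalb nuclei (67 nuclei), 22.5 in Drd2 nuclei and 58.6 in Sst nuclei. The Drd2 and Sst classes are small, with as few as 2 and 7 nuclei in a library at 2 or more UMIs. Each library still counts equally in their means. The Sst libraries overlapped those of every other class named here. These gates left 42.02% of the neurons without a class.

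**Figure D2:**
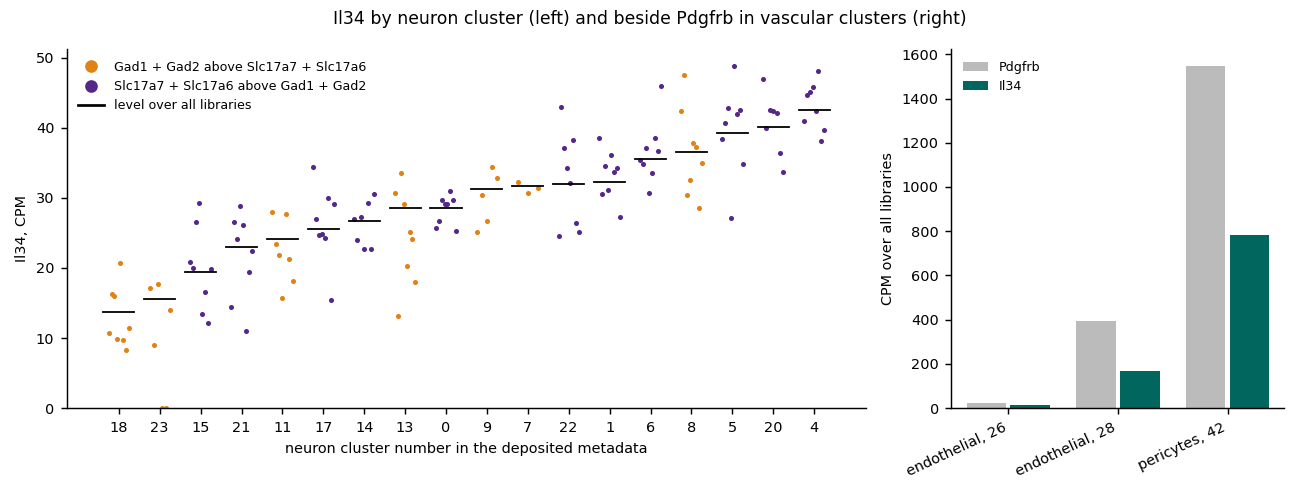
Left, Il34 in CPM (y axis) in the 18 largest neuron clusters (x axis, ordered by level), with 1 point per library, coloured by which neurotransmitter markers were higher, and a black line for the level over all libraries. Right, Il34 and Pdgfrb in CPM over all libraries in 3 vascular clusters: both rise from endothelial cluster 26 (12.6 and 21.2 CPM) to pericyte cluster 42 (782 and 1545 CPM). Of the pericyte markers not shown, Rgs5 was higher in endothelial cells than in pericytes and Kcnj8 was lower.

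Csf1r was a gene of microglia and macrophages. It stood at 764 ± 158 CPM there (n = 8), and the lowest library (577 CPM) exceeded the highest value in any other cell type. Newly formed oligodendrocytes came next with 42.2 ± 23.4 CPM, beside the microglial markers noted above. Endothelial cells held 8.77 ± 5.40 CPM, neurons 5.08 ± 0.951, astrocytes 3.70 ± 3.07, precursor cells 2.93 ± 2.78 and mature oligodendrocytes 1.56 ± 1.98, and the order among these did not exceed the spread between libraries. Neurons nonetheless held 43.6% of the Csf1r UMIs, unevenly over their 25 clusters. Over all libraries, cluster 0 (6859 nuclei) held 1652 UMIs at 8.37 CPM, whereas cluster 1 (5870 nuclei) held 15 at 0.243 CPM. Cluster 13 held 552 at 24.2 CPM and cluster 25 held 254 at 19.7 CPM. Cluster 13 came mainly from WT replicate 1 (614 nuclei) and Cnp-/- replicate 2 (694), and cluster 25 from WT replicate 2 (717). Neurons also held the microglial marker list at a median of 71.1 CPM. The part of microglial RNA in neuronal Csf1r was not tested. Only 3.59% of neurons had a Csf1r UMI at a median of 9105 UMIs, and 0.264% after thinning to 757 UMIs. In homeostatic microglia the shares were 73.5% at a median of 1159.5 UMIs and 59.5% after thinning. Csf1r (ENSMUSG00000024621) lies on the plus strand of chromosome 18, from 61100598 to 61132149.

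The authors divided microglia into 4 subpopulations. Homeostatic microglia are the resting form, and disease-associated microglia (DAM) were split into an amyloid-DAM and a myelin-DAM form. Nuclei named MyTE carry myelin transcripts, and macrophages form a separate class. The microglia table held 982 homeostatic, 586 amyloid-DAM, 248 myelin-DAM and 270 MyTE nuclei and 205 macrophages. Levels are given for library profiles of 20 or more nuclei, and because these classes were found by clustering the same counts they are described without a test.

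Csf1r was highest in homeostatic microglia. They held 1445 and 1291 CPM in WT, 1184 and 1263 in Cnp-/-, 1187 and 1085 in 5xFAD, and 1071 and 1250 in Cnp-/- 5xFAD, a mean of 1222 ± 120. Amyloid-DAM held 797 ± 84.8 CPM (888 and 737 in 5xFAD, 714 and 850 in Cnp-/- 5xFAD). Myelin-DAM held 823 ± 137 CPM (662 and 891 in Cnp-/-, 766 and 974 in Cnp-/- 5xFAD). All 8 homeostatic values lay above all 8 DAM values, whereas the DAM forms overlapped each other. Macrophages were at 852 ± 142 CPM and MyTE nuclei at 406 ± 49.0 CPM. MyTE nuclei also held mature oligodendrocyte markers at a median of 6052 CPM, against 89.0 CPM in homeostatic microglia, and microglial markers at 1612 CPM against 4507 CPM.

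Csf1 ran the opposite way. Homeostatic microglia held 23.3 ± 21.8 CPM, from 0 to 56.7 over the 8 libraries. Amyloid-DAM held 235 and 268 CPM in 5xFAD and 195 and 297 CPM in Cnp-/- 5xFAD, a mean of 249 ± 43.8. Myelin-DAM held 87.6 and 170 CPM in Cnp-/- and 155 and 177 CPM in Cnp-/- 5xFAD, a mean of 147 ± 40.9. The lowest amyloid-DAM library was thus above the highest myelin-DAM library, and every DAM profile was above every homeostatic one. Counts were low, with 208 Csf1 UMIs in all amyloid-DAM, 44 in all myelin-DAM and 27 in all homeostatic nuclei. The gap between the ranges of the DAM forms, from 177 to 195 CPM, is within counting error. MyTE nuclei held 121 ± 52.4 CPM, a level near the 116 CPM of mature oligodendrocytes, whose markers they carry. The part of oligodendrocyte RNA in the MyTE value was not tested. In macrophages Csf1 was at 20.1 ± 16.5 CPM.

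Over all genotypes, amyloid-DAM were 28.1% of microglial nuclei and held 54.3% of the microglial Csf1 UMIs. Homeostatic microglia were 47.1% of the nuclei and held 7.05%, and MyTE nuclei were 12.9% and held 27.2%. The amyloid-DAM share of Csf1 UMIs was 69.1% in 5xFAD and 53.9% in Cnp-/- 5xFAD. In Cnp-/- it was 8%, against 40% in MyTE nuclei and 34% in myelin-DAM. A Csf1 UMI was found in 24.4% of amyloid-DAM, 14.5% of myelin-DAM and 2.34% of homeostatic nuclei, and after thinning, which left out 59, 39 and 120 nuclei, in 16.1%, 8.56% and 1.58%. Neurons, at 0.46% after thinning, were lower than each of these. Ligand and receptor also occurred in the same nuclei. Of 143 amyloid-DAM nuclei with a Csf1 UMI, 90 (62.9%) had a Csf1r UMI, and of the 443 others 272 (61.4%) had one. These shares were 44.4% (16 of 36) and 60.8% in myelin-DAM, 69.6% (16 of 23) and 73.6% in homeostatic microglia, and 68.4% and 63.4% in MyTE nuclei. Nuclei with a Csf1 UMI were deeper than the others, with medians of 1553 and 1240 UMIs in amyloid-DAM and 3331 and 2637 in MyTE nuclei, and these shares were not thinned. Il34 was almost absent from microglia, with 22 UMIs in the 4 subpopulations and 4 in macrophages.

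**Figure D3:**
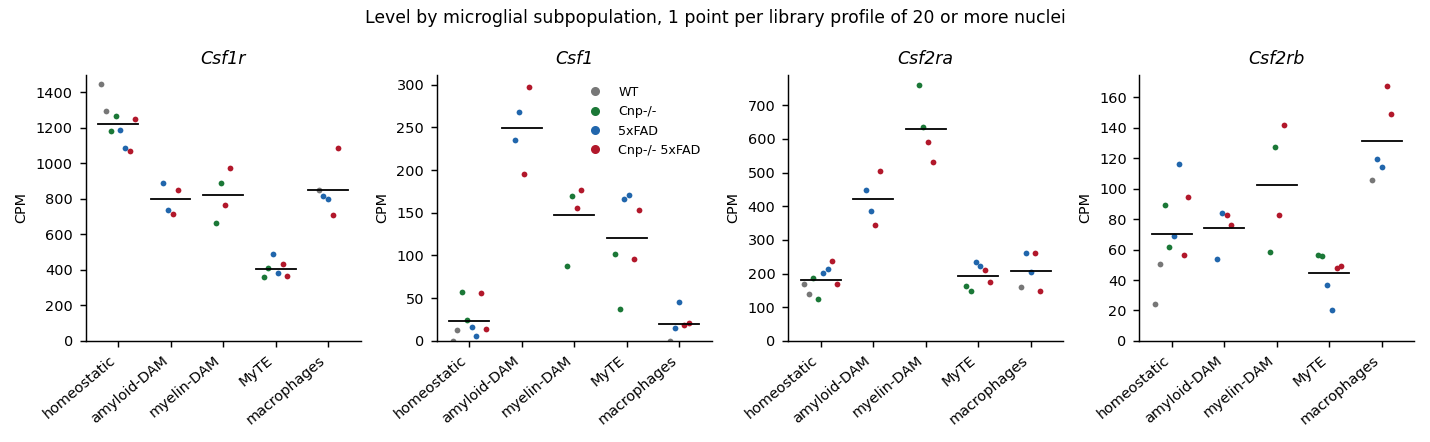
Levels in CPM (y axis, linear, from 0) of Csf1r, Csf1, Csf2ra and Csf2rb in 4 microglial subpopulations and macrophages, with 1 point per library profile of 20 or more nuclei, coloured by genotype, and the mean as a black line. Csf1r is lower in both DAM forms than in homeostatic microglia, Csf1 is highest in amyloid-DAM (195 to 297 CPM) and Csf2ra in myelin-DAM (531 to 759 CPM).

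Csf2ra, the GM-CSF receptor α chain, was found in glia and neurons. Microglia and macrophages held 225 ± 65.2 CPM, oligodendrocyte precursor cells 111 ± 22.1, newly formed oligodendrocytes 89.1 ± 20.1, neurons 82.8 ± 7.77, astrocytes 64.6 ± 11.96 and mature oligodendrocytes 49.3 ± 13.1. Vascular cells were lower, with 15.04 ± 6.95 CPM in endothelial cells, below mature oligodendrocytes in all 8 libraries, and 5 UMIs in 260 pericytes. Neuronal clusters of 1000 or more nuclei ranged from 68.4 to 109 CPM.

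Within microglia Csf2ra was highest in myelin-DAM. This subpopulation held 759 and 636 CPM in Cnp-/- and 590 and 531 CPM in Cnp-/- 5xFAD, a mean of 629 ± 96.6. Amyloid-DAM held 449 and 385 CPM in 5xFAD and 345 and 504 CPM in Cnp-/- 5xFAD, a mean of 421 ± 70.4. Homeostatic microglia held 180 ± 38.1 CPM, from 124 to 238. The 3 ranges did not overlap, and the order of the DAM means was the reverse of that for Csf1. A Csf2ra UMI was found, after thinning, in 37.6% of myelin-DAM, 27.9% of amyloid-DAM, 13.5% of homeostatic microglia and 6.36% of neurons.

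Csf2rb, the common β chain, was highest in the myeloid class. Microglia and macrophages held 59.3 ± 14.3 CPM and newly formed oligodendrocytes 5.73 ± 5.52, and all other types were at or below 1.61 CPM on average. No UMI was found in 1522 oligodendrocyte precursor cells or in 260 pericytes, which, at 3 counts over each class, allows up to 0.615 CPM and 7.45 CPM. Macrophages held 131 ± 25.99 CPM, myelin-DAM 103 ± 38.6, amyloid-DAM 74.1 ± 14.1, homeostatic microglia 70.3 ± 28.8 and MyTE nuclei 44.3 ± 13.8, and the microglial subpopulations overlapped. In neurons Csf2rb was at 0.351 CPM. Csf2rb (ENSMUSG00000071713, plus strand of chromosome 15, 78325752 to 78353847) has a related gene, Csf2rb2, 20030 bases away on the minus strand, with 260 UMIs. Macrophages held 48 UMIs of Csf2rb and 2 of Csf2rb2, homeostatic microglia 86 and 43, myelin-DAM 28 and 16, and amyloid-DAM 62 and 13. Whether reads were split between the genes was not tested, so the values of Csf2rb are uncertain.

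Genotype effects were tested on UMIs summed per library, with edgeR's quasi-likelihood test and Benjamini-Hochberg adjustment over all genes of a class. The contrast called Cnp loss sets the mean of Cnp-/- and Cnp-/- 5xFAD against that of WT and 5xFAD, and the contrast called 5xFAD sets the mean of both transgenic genotypes against the other two. How replicates were prepared is not stated further, and p-values measure the spread between these libraries.

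Over all microglia without macrophages, Csf1 passed the test for both factors, with WT below each mutant and overlapping levels in 5xFAD and Cnp-/- 5xFAD. WT microglia held 0 and 1 Csf1 UMIs (0 and 11.3 CPM, 219 nuclei), Cnp-/- microglia 38 and 12 (89.6 and 63.7 CPM), 5xFAD microglia 98 and 67 (141 and 146 CPM), and Cnp-/- 5xFAD microglia 90 and 77 (128 and 156 CPM). At 3 counts, the 0 of WT replicate 1 allows up to 12.3 CPM. The WT libraries lay below all others, Cnp-/- came between, and the 2 transgenic genotypes overlapped. Against the single WT UMI, the pooled ratio was 27.1 in Cnp-/- (95% interval of counting 4.65 to 1093), 47.5 in 5xFAD (8.41 to 1887) and 46.4 in Cnp-/- 5xFAD (8.22 to 1845). Intervals cover counting error only.

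Csf1 was the only one of the 4 genes tested here that passed, with a log2 fold change of 3.12 ± 0.44 (SE, edgeR adjusted p = 0.0115) for 5xFAD and 2.29 ± 0.47 (edgeR adjusted p = 0.0443) for Cnp loss. Among all 8185 genes tested, 0.391% passed for 5xFAD and 1.59% for Cnp loss. At the unadjusted threshold 3 of the 4 passed in each contrast, beside 833 and 1078 of all genes, and of the 4 DESeq2 called Csf1 alone in each, beside 126 and 237 genes in all. These fold changes rest on a WT level of 1 UMI. DESeq2 gave 3.14 for 5xFAD and 2.30 for Cnp loss. Their dependence on the prior count of the fit was not tested. The 5xFAD call was lost without WT replicate 1 (edgeR adjusted p = 0.0876), 5xFAD replicate 1 (0.0662), 5xFAD replicate 2 (0.0697) or Cnp-/- 5xFAD replicate 2 (0.0536). The call for Cnp loss held in 1 of 8 such fits, the one without WT replicate 2, with edgeR adjusted p = 0.0289 to 0.266 over the 8. It was also lost with a replicate block (0.0679) and when MyTE nuclei were left out (0.132). With microglia as annotated over all nuclei, the log2 fold change of Csf1 was 2.11 for 5xFAD, still past the threshold, and 1.34 for Cnp loss, not past it.

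The fitted values rested on the step from WT to any mutant. The interaction of the factors for Csf1 was -4.60 ± 0.95 on the log2 scale and did not pass in edgeR (adjusted p = 0.140, where 0.0489% of genes passed), but did in DESeq2 (adjusted p = 0.0489). No other member with an adjusted p passed the interaction in either tool, and 3 of 4 had an unadjusted edgeR p under 0.05, beside 713 of all 8185 genes and 67 called in DESeq2. Within amyloid-DAM, Cnp-/- 5xFAD differed from 5xFAD by -0.06 ± 0.28 for Csf1, and within myelin-DAM it differed from Cnp-/- by 0.51 ± 0.46. In homeostatic microglia alone Csf1 was too sparse to test, with 1 UMI in WT, 9 in Cnp-/-, 5 in 5xFAD and 12 in Cnp-/- 5xFAD. The genotypes also differed in the makeup of their microglia, which was not tested. Homeostatic nuclei were 92.7% of microglia in WT, 43.9% in Cnp-/-, 46.6% in 5xFAD and 35.6% in Cnp-/- 5xFAD. Amyloid-DAM made up 41.5% in 5xFAD and myelin-DAM 30.7% in Cnp-/-. MyTE nuclei made up 6.39% in WT, 20.4% in Cnp-/-, 10.3% in 5xFAD and 13.7% in Cnp-/- 5xFAD. Of the 50 Csf1 UMIs in Cnp-/- microglia, MyTE nuclei held 20 and myelin-DAM 17. The part of this makeup in the change of Csf1 was not tested.

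Csf1r was lower in the mutants over all microglia, at 1323 and 1189 CPM in WT, 698 and 913 in Cnp-/-, 902 and 787 in 5xFAD, and 736 and 843 in Cnp-/- 5xFAD. Both WT libraries lay above the other 6. The log2 fold change was -0.36 ± 0.12 for Cnp loss (edgeR adjusted p = 0.209) and -0.30 ± 0.12 for 5xFAD (edgeR adjusted p = 0.417), so neither passed the adjustment. Within homeostatic microglia the values were -0.07 ± 0.10 and -0.18 ± 0.10, and their approximate 95% intervals, from the SE, ran from -0.26 to 0.12 and from -0.37 to 0.02.

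Csf2ra was at 156 and 136 CPM in WT microglia, 328 and 281 in Cnp-/-, 309 and 292 in 5xFAD, and 316 and 311 in Cnp-/- 5xFAD. WT again stood apart, this time below. The log2 fold changes of 0.58 ± 0.14 for Cnp loss (edgeR adjusted p = 0.0930) and 0.52 ± 0.14 for 5xFAD (edgeR adjusted p = 0.207) did not pass. In homeostatic microglia they were -0.00 ± 0.25 and 0.38 ± 0.25. Csf2rb was at 28.7 and 45.3 CPM in WT and between 54.7 and 81.2 in the other 6 libraries, with edgeR adjusted p = 0.474 and 0.671. None of the 3 members tested in homeostatic microglia passed either contrast, at the adjusted or the unadjusted threshold or in DESeq2, where 0.11% and 0.0657% of 4566 genes passed for Cnp loss and 5xFAD in edgeR (246 and 271 unadjusted, 5 and 14 in DESeq2).

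**Figure D4:**
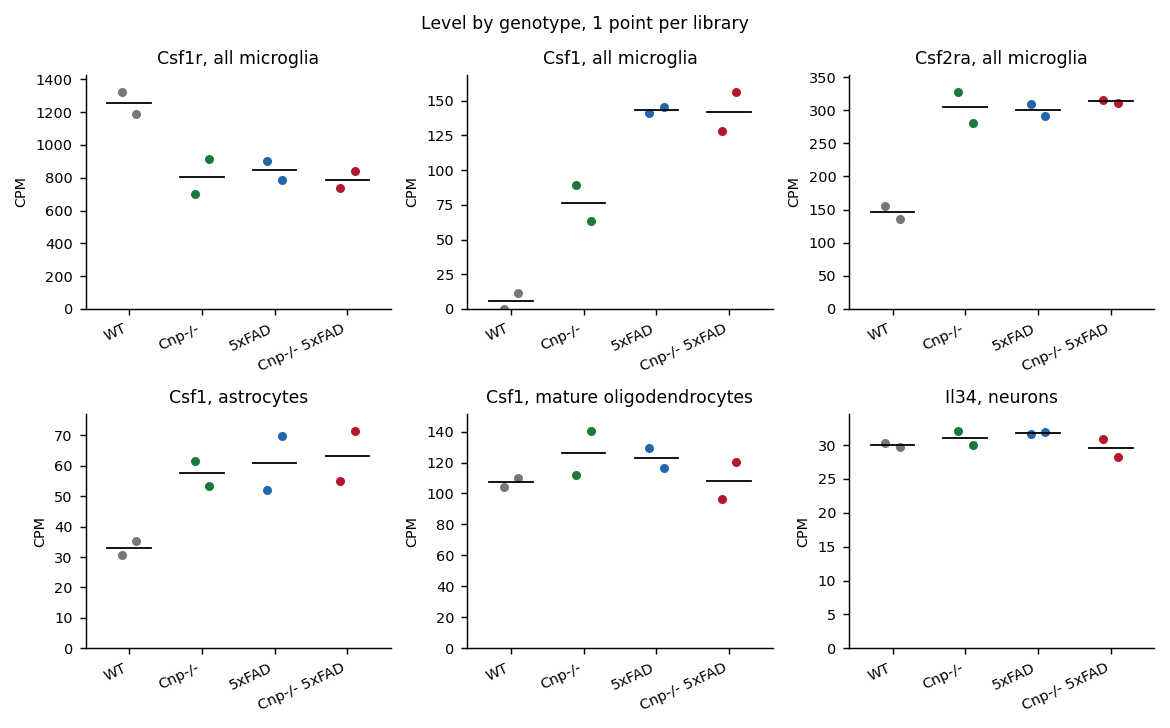
Levels in CPM (y axis, linear, from 0) by genotype (x axis), with 1 point per library and the mean of 2 libraries as a black line, for Csf1r, Csf1 and Csf2ra in all microglia, Csf1 in astrocytes and in mature oligodendrocytes, and Il34 in neurons. WT libraries stand apart in the microglial panels and in astrocytes, whereas Csf1 in mature oligodendrocytes (96.7 to 140 CPM) and Il34 in neurons (28.2 to 32.1 CPM) have their lowest library in Cnp-/- 5xFAD.

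The other classes tested gave no call of the 5 genes. Pericytes and endothelial cells were not tested. In astrocytes Csf1 was at 30.6 and 35.2 CPM in WT, 61.7 and 53.5 in Cnp-/-, 51.9 and 69.7 in 5xFAD, and 54.9 and 71.4 in Cnp-/- 5xFAD. Both WT libraries were thus below the other 6. The log2 fold changes were 0.43 ± 0.16 for Cnp loss (edgeR adjusted p = 0.905) and 0.49 ± 0.16 for 5xFAD (edgeR adjusted p = 0.974). Astrocytic Csf2ra differed by 0.44 ± 0.11 with 5xFAD (edgeR adjusted p = 0.937). No gene of the 11809 tested in astrocytes passed in edgeR (0% for both factors, with 641 and 574 at the unadjusted threshold and 7 and 2 in DESeq2). Even Cnp, at -2.04 ± 0.29 for Cnp loss, did not pass there in edgeR (edgeR adjusted p = 0.720), but did in DESeq2 (DESeq2 adjusted p = 0.00400). A missing call in astrocytes therefore does not show that a gene was unchanged. For Cnp loss, Cnp also did not pass in all microglia, neurons or precursor cells by either tool. Of the 2 members tested there, 0 passed in edgeR or DESeq2, while 1 for Cnp loss and 2 for 5xFAD reached the unadjusted threshold.

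In mature oligodendrocytes Csf1 differed by 0.10 ± 0.17 for Cnp loss and -0.04 ± 0.17 for 5xFAD. Neither of the 2 members tested there passed in edgeR, at the unadjusted threshold or in DESeq2, where 0.765% of 8761 genes passed for Cnp loss (1052 unadjusted, 517 in DESeq2) and 0% for 5xFAD (326 unadjusted, 12 in DESeq2) in edgeR. The approximate 95% intervals of Csf1, from the SE, ran from -0.23 to 0.42 and from -0.36 to 0.28. These cells had lost Cnp itself, with a log2 fold change of -3.32 ± 0.17 (edgeR adjusted p = 0.000801). In oligodendrocyte precursor cells Csf1 differed by -0.39 ± 0.48 for Cnp loss and 0.23 ± 0.48 for 5xFAD, and Csf2ra by -0.24 ± 0.19 and -0.18 ± 0.19. There 0 of the 2 members tested passed by either tool or unadjusted, and 0% of 9264 genes passed either factor in edgeR (393 and 407 unadjusted, 1 and 3 in DESeq2).

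In neurons all 5 members were tested and 0 passed in edgeR or DESeq2, where 0.0185% of 21584 genes passed for Cnp loss (1756 unadjusted, 181 in DESeq2) and 0% for 5xFAD (2542 unadjusted, 506 in DESeq2) in edgeR. Il34 differed by 0.04 ± 0.06 for Cnp loss and 0.02 ± 0.06 for 5xFAD. The approximate 95% intervals, from the SE, ran from -0.08 to 0.15 and from -0.09 to 0.14. Neuronal Csf1 differed by 0.27 ± 0.13 (edgeR adjusted p = 0.641) and 0.07 ± 0.13. The unadjusted threshold was reached by 1 member, Csf2rb with Cnp loss (0.82 ± 0.29, edgeR adjusted p = 0.573), at a level of 0.351 CPM. No member passed an interaction in neurons, astrocytes, mature oligodendrocytes, precursor cells or homeostatic microglia in edgeR or DESeq2, none reached the unadjusted threshold, and 0% of genes passed in edgeR. At the unadjusted threshold 1066 genes passed in neurons, 493 in astrocytes, 299 in mature oligodendrocytes, 342 in precursor cells and 222 in homeostatic microglia, and DESeq2 called 58, 9, 11, 0 and 0.

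Between genotypes within a DAM form, 0 of the 4 members tested passed in edgeR, unadjusted or in DESeq2, and 0% of 3919 genes passed in edgeR (118 unadjusted and 2 by DESeq2 in amyloid-DAM, 242 and 3 in myelin-DAM). Csf1r differed by -0.07 ± 0.18 between Cnp-/- 5xFAD and 5xFAD in amyloid-DAM and by 0.20 ± 0.22 between Cnp-/- 5xFAD and Cnp-/- in myelin-DAM. Csf2ra differed by -0.02 ± 0.21 and -0.32 ± 0.25.

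**Figure D5:**
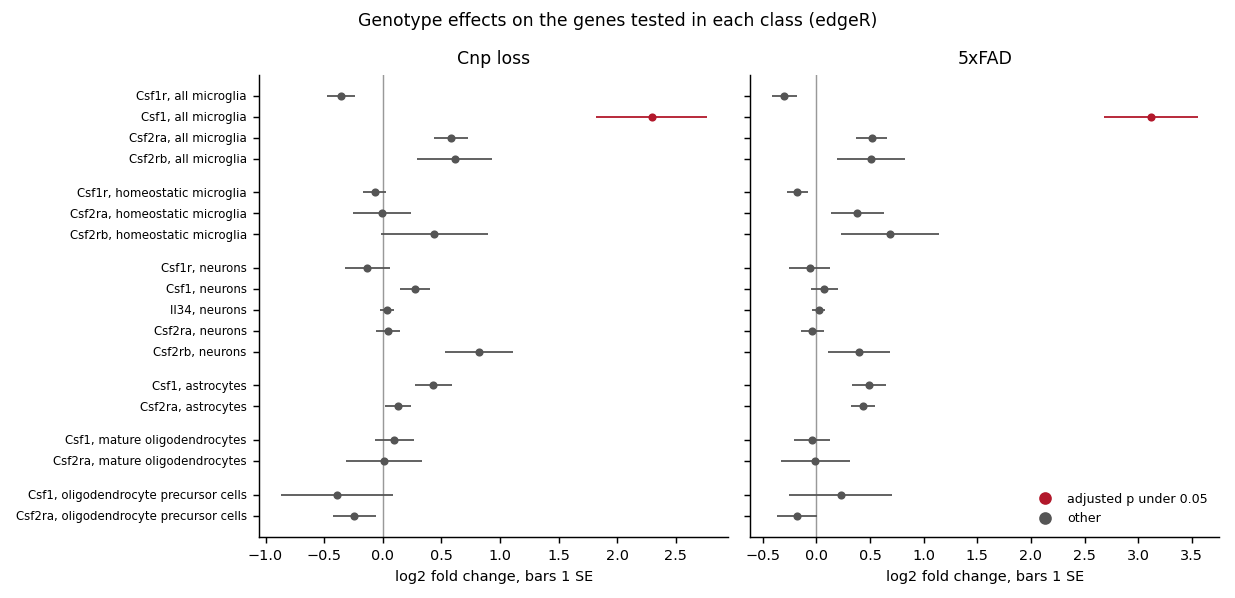
Log2 fold changes (x axis, bars are 1 SE) of the genes tested in each class (y axis) for Cnp loss, left, and 5xFAD, right, from edgeR. Csf1 in all microglia, in red, is the only point with an adjusted p under 0.05, at 2.29 for Cnp loss and 3.12 for 5xFAD.

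Summed over all nuclei of a library, Csf1 was at 12.3 ± 0.560 CPM in the 4 libraries with 5xFAD and 10.1 ± 1.43 CPM in the 4 without. The difference of 2.21 CPM reached the smallest p that 4 against 4 libraries allow (two-sided exact permutation test, p = 0.0286, adjusted p = 0.143 over 10 comparisons). Csf2rb gave the same p at 1.16 ± 0.151 against 0.577 ± 0.268 CPM. Csf1r was at 12.7 ± 2.68 against 8.74 ± 1.61 CPM (exact permutation p = 0.0571, adjusted p = 0.190). The libraries also differed in cell number. Microglia and macrophages numbered 360 to 517 nuclei in the 4 libraries with 5xFAD and 79 to 303 in the 4 without. They held 54.3% of the Csf2rb UMIs, 52.0% of those of Csf1r and 6.87% of those of Csf1. The part of cell number in the differences of these genes was not tested. Il34 stood at 30.9 CPM with and without 5xFAD.

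Downstream of the receptor little passed. Of 20 genes of CSF1R signalling (adaptors, kinases, phosphatases and STAT factors), all were tested in microglia, and 0 passed either factor in edgeR, with 2 at the unadjusted threshold for each (1078 and 833 of all 8185 genes for Cnp loss and 5xFAD), and 0 and 1 passed in DESeq2. Their median log2 fold change was -0.07 for Cnp loss, beside 0.02 over all genes tested, and -0.11 for 5xFAD beside 0.05. The smallest p for Cnp loss belonged to Inpp5d, the lipid phosphatase SHIP1 (-0.27 ± 0.09, edgeR adjusted p = 0.211), Pik3cd, a catalytic subunit of PI3-kinase (-0.36 ± 0.14, edgeR adjusted p = 0.286), and Pik3r1, its regulatory subunit (-0.25 ± 0.12). For 5xFAD Pik3r1 was among the 3 smallest, at -0.30 ± 0.12. Of 6 regulators of Csf1r transcription 5 were tested, of 11 related receptors and ligands 3, and of 3 other IL-34 partners 1, the lipid receptor Trem2, and none passed either factor in edgeR or DESeq2. At the unadjusted threshold there were 1 for Cnp loss, Cebpa (-1.35 ± 0.60), and 1 for 5xFAD, Irf8 (0.29 ± 0.12), both myeloid transcription factors.

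Genes most alike in pattern were ranked by the Pearson correlation of log2(CPM + 1) over 63 library profiles of the 8 cell types, among 16867 genes. The profiles share libraries and differ in depth, and the values are a description. Csf1r was closest to Arhgap30 (0.949), Myo1f (0.946), the interleukin-10 receptor gene Il10ra (0.946), Trem2 (0.942) and Adgre1, which encodes F4/80 (0.940). Genes close to Il34 included the fibroblast activation protein gene Fap (0.929), Dysf (0.923), Rgs4 (0.919) and Gpc3 (0.918). Csf1 had looser partners, led by Csrp1 (0.906), Cdk19 (0.848) and the lysosomal regulator Tfeb (0.823), then Gna12 (0.806) and Il33 (0.793).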

How the data were processed

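The authors aligned reads to mm10 (Cell Ranger 6.1.2, per the submitters' processing notes), removed ambient RNA with CellBender, filtered nuclei and deposited UMI counts per gene and nucleus with cell types, clusters and microglial subpopulations. Ambient removal may lower the counts of genes in cells that lack them. How doublets were treated is not given in the sources used here, and no caller was run. No column of per-sample values was left out (0), and no row was without a gene.

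From the deposited counts, UMIs were summed per library and class, giving profiles of 88299 to 702785 UMIs for all microglia and 64172772 to 77113463 for neurons, and scaled to CPM. Shares of nuclei with a UMI were also taken after thinning to 757 UMIs, the 10th percentile of the microglia table. Genotypes were compared with edgeR 4.0.16 (R 4.3.3; filterByExpr, TMM, quasi-likelihood test, two-sided, threshold 0.05), with all 8 libraries in 1 model for each class. The fits were also run on simulated counts with the same spread for every gene. Such a run does not cover a gene like Csf1, with 1 UMI in WT microglia. The model of the DAM forms held 8 profiles from the 6 mutant libraries, without WT, and both Cnp-/- 5xFAD libraries entered it with each form. Alternatives were DESeq2 1.42.0 and its size factors, no filter, a replicate block, each library left out, MyTE nuclei left out, and microglia as annotated in the table of all nuclei. A library's own level was compared by exact permutation. Intervals of the pooled ratios and limits at 3 counts cover counting error only. Those of fold changes, taken from the SE, are approximate and can be too narrow.

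The genes and lists were chosen with earlier results of these data known. All 5 genes are described whatever their values, with fold changes printed for a part of the fits. From the lists, genes past the threshold are named and, where there were none, the 3 of CSF1R signalling with the smallest p; Cebpa and Irf8 were named after their values were seen. Some genes that these rules select are not reported here.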

Additional observations from a re-analysis of the deposited data

Results flagged for a closer look

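Il34 appeared in nuclei outside the comparisons. The deposited annotation of all nuclei names 181 nuclei as microglia that the microglia table does not hold. These had 121 Il34 UMIs, or 138 CPM, above the limit that a count of 0 allows, beside 22 UMIs in the microglial subpopulations. Their level by library was 147 and 0 CPM in WT, 191 and 88.6 in Cnp-/-, 168 and 125 in 5xFAD, and 84.8 and 197 in Cnp-/- 5xFAD. They had a median of 3880 UMIs per nucleus, and summed markers of mature oligodendrocytes at 2488 CPM, microglia at 914 CPM, astrocytes at 795 CPM, neurons at 510 CPM, macrophages at 500 CPM and pericytes at 468 CPM. The part of these other cell types in the Il34 value was not tested.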

How the results depend on the processing

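The number of libraries limits the comparisons, as does depth for Csf1 in WT microglia (1 UMI). Of 978 recomputed values, 775 counted as the same. For fold changes and differences this meant an unchanged direction and call. For levels, shares of nuclei and counts of genes it meant staying within a set margin of the main value, which 118 values left. Of 592 log2 fold changes of the 5 genes, 548 kept their direction. Differences between replicate 1 and replicate 2 correlated between -0.20 and 0.19 over pairs of genotypes. Counting noise weakens such correlations, so they do not settle whether same-numbered libraries share a batch. A replicate block gave 93 calls in place of 130 for Cnp loss in all microglia and ended the call of Csf1 (2.29, edgeR adjusted p = 0.0679). The block also moved Csf2ra for 5xFAD in mature oligodendrocytes to 0.0540. It changed no other call of the 5 genes. Csf1 for Cnp loss was 2.21 without MyTE nuclei and 1.34 with microglia of the table of all nuclei, neither past the threshold, and with those microglia 2.11 for 5xFAD, still past it. Its interaction passed without a filter (-4.61) and in DESeq2 (-4.63). The cause was not tested. Taking the mean of normalized UMIs over nuclei gave 929 CPM of Csf1r in microglia and macrophages and, in a library, a difference with 5xFAD of 26.1 CPM for Csf1r, 9.75 for Csf1 and 3.34 for Csf2rb (exact permutation p = 0.0286 each), 0.895 for Il34 and 6.96 for Csf2ra, and of 3.51 with Cnp loss for Csf2ra. Csf2ra for Cnp loss in mature oligodendrocytes was -0.00633 with DESeq2 size factors and -0.00458 in DESeq2, for 5xFAD 0.00105 with those size factors, and in amyloid-DAM 0.0105 without a filter.

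With each library left out, Csf1 in all microglia ran from 1.43 to 4.10 for Cnp loss and from 2.25 to 4.92 for 5xFAD. Differences per library with 5xFAD ran from 2.76 to 4.89 CPM for Csf1r, 1.63 to 2.61 for Csf1, 0.481 to 0.662 for Csf2rb, -0.434 to 0.697 for Il34 and -4.90 to 2.71 for Csf2ra. Those with Cnp loss ran from -2.70 to 0.518 for Csf1r, -0.487 to 0.758 for Il34 and -4.02 to 3.59 for Csf2ra. The other fold changes that turned sign had no call. In log2, these were Csf2ra for Cnp loss in homeostatic microglia (-0.18 to 0.12), neurons (-0.0461 to 0.148) and mature oligodendrocytes (-0.37 to 0.24), and for 5xFAD in neurons (-0.126 to 0.0636), mature oligodendrocytes (-0.23 to 0.37) and precursor cells (-0.32 to 0.0131). Il34 in neurons ran from -0.00157 to 0.0644 and -0.0068 to 0.0477, Csf1r for 5xFAD in neurons from -0.234 to 0.0714, Csf1 for 5xFAD in neurons from -0.00988 to 0.169, and Csf1 in mature oligodendrocytes from -0.00627 to 0.19 and -0.133 to 0.0686. In amyloid-DAM the ranges were -0.186 to 0.0731 for Csf1r, -0.35 to 0.24 for Csf1, -0.28 to 0.25 for Csf2ra and -0.0682 to 0.58 for Csf2rb, and in myelin-DAM -0.0408 to 0.365 for Csf1r, -0.0276 to 0.898 for Csf1 and -0.22 to 0.87 for Csf2rb. The interaction of Csf2ra turned sign in neurons, astrocytes, precursor cells, homeostatic microglia and mature oligodendrocytes (-0.0268 to 1.19 in the last), and that of Csf1 in neurons.

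Counts of genes called moved more. For Cnp loss in all microglia there were 130, but 377 without a filter, 237 in DESeq2, 32 without MyTE nuclei and 10 to 122 with a library left out. For 5xFAD there were 32, but 264, 126 and 16 to 46. In mature oligodendrocytes Cnp loss gave 67 calls, but 544 without a filter, 517 in DESeq2, 23 with the block and 2 (without either 5xFAD library) to 253 (without Cnp-/- replicate 1). In astrocytes no filter gave 358 and 352 calls in place of 0.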
